A study of Mus musculus with 4 samples.

Results

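The V-ATPase subunits, cathepsins and lysosomal membrane genes described here are 33 genes chosen by symbol, and all 33 were found among the 32285 genes of the count matrices. They comprise 7 subunits of the membrane sector of the vacuolar proton pump (V0), 8 subunits of its cytosolic sector (V1), 2 accessory proteins, 10 cathepsins and 6 proteins of the lysosomal membrane. The rule is a list of symbols and uses no measured value, but the list was drawn up with earlier results of these data known. The samples were 4 single-cell RNA sequencing libraries made with 10x Genomics chemistry, 1 each from fracture callus and trabecular bone of control mice and of mice given the glucocorticoid (GC) prednisolone. All groups were 20-week-old C57BL/6J male mice sampled at week 2. The GC groups received 6.25 mg/kg/d and the control groups placebo, through slow-release pellets per the labels, whereas the study's methods describe injections for its fracture model. The number of mice in a library is not given in the sources used here. With 1 library per group, a difference between control and GC has no replicate check, and treatment and library cannot be told apart. Intervals below are exact 95% intervals that cover counting error only.

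The V-ATPase hydrolyses ATP in its V1 head and turns a rotor that moves protons through V0, which acidifies lysosomes in every cell and, in osteoclasts, the pit under the ruffled border where bone mineral dissolves. Cathepsins are proteases that work in that acid. The a3 subunit Tcirg1, the chloride-proton exchanger Clcn7 and its partner Ostm1 are known from osteopetrosis, a disease in which osteoclasts form but do not resorb. Many lysosomal genes carry a motif near their start that the TFEB family of transcription factors binds.

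Promoter windows of 250 bases before to 50 after the transcript start were available from RefSeq (GRCm38.p6, the build of the count files) for 26 of the 33 members, all but Atp6v0a2, Atp6v1b2, Atp6v1c1, Atp6v1g1, Atp6v1h, Ctsb and Ctsh. The motif CACGTG, which reads the same on both strands, was in the windows of 10 of the 26 members (38.5%), against 8.09% of 27025 genes. The longer TCACGTGA, which contains it and is also a palindrome, was in 6 of the 26 (23.1%), against 1.12% of genes. These 6 were Atp6v0d1, Atp6v0e, Atp6v1a, Ctsa, Ctsd and Clcn7. Atp6v0b, Ctsf, Ctsl and Lamp1 had the shorter motif alone. A match is a description of letters in a window and no evidence of binding. The following 5 windows are examples picked because they hold a motif, from V0, cathepsin and membrane genes that recur in the results, and none is from a V1 or accessory gene. Each runs 5′ to 3′ on the gene's own strand from 250 bases before the start through the first 30 transcribed bases, with every motif in capitals.
Atp6v0d1, chr8:105566035-105566314, minus strand: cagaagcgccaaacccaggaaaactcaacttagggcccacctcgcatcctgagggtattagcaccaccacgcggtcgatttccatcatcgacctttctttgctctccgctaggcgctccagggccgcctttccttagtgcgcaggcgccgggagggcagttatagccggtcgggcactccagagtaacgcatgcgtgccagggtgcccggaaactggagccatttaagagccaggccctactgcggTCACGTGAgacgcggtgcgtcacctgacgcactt
Ctsd, chr7:142387798-142388077, minus strand: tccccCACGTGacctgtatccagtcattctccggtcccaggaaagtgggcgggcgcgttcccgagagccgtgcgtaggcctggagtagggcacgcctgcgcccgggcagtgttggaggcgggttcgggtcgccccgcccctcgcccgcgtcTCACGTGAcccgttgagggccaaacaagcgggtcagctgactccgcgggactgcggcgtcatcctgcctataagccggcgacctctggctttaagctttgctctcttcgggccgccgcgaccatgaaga
Ctsa, chr2:164833523-164833802, plus strand: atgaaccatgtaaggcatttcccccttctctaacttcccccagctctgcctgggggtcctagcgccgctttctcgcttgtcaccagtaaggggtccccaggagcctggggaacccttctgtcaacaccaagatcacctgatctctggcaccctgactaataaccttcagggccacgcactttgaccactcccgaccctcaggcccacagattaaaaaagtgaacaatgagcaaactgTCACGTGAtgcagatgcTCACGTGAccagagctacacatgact
Lamp1, chr8:13158911-13159190, plus strand: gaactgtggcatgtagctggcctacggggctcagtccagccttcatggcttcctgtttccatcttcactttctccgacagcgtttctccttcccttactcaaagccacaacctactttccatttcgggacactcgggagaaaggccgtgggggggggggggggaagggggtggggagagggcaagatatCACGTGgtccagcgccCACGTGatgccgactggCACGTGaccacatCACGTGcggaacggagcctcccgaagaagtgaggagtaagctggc
Clcn7, chr17:25133141-25133420, plus strand: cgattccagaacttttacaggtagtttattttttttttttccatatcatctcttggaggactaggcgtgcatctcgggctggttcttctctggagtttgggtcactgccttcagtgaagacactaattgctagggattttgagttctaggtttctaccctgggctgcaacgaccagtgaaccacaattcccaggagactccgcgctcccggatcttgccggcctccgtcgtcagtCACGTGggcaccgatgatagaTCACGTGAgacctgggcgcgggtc
In Atp6v0d1 the longer motif began 4 bases before the start, whereas in Ctsd it began 99 bases before it. In the windows shown, Ctsa held 2 copies and Clcn7 a match on each side of the start. Lamp1 held 4 of the shorter motif within 61 bases of its start. Ctsa and Clcn7 each had 2 windows, and the one not shown held 0 matches (chr2:164832622-164832921 and chr17:25136381-25136680). For Ctsa it is the window without a match that spans the annotated start of the gene. The only window of Atp6v0e, which holds the longer motif, lies inside the gene (chr17:26676146-26676445), downstream of its annotated start at 26663231.

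In callus the control library held 95852254 UMIs and the GC library 64388215, and in trabecular bone 41239842 and 45876714. In the same order 6705, 6890, 3803 and 4601 cells were kept, with median depths of 3259 to 6301 UMIs per cell. The deposited matrix of GC callus stops at 500 UMIs per barcode, whereas the other matrices include every barcode. Between 6 and 10 cell barcodes were shared by each pair of libraries. Clusters were made without the members and were named from marker genes, by a naming rule set after the clusters had been seen. Each level is the class's summed UMIs for a gene as counts per 1000000 UMIs of that class (CPM), and no test was possible. A member was called higher or lower in GC when it differed at least 1.5-fold on the log2(CPM + 5) scale among genes with at least 50 UMIs over both libraries. Beside each count stands the background, the percentage of all such genes of that class called in the same direction. The 16 callus classes share the same pair of libraries, as do the 9 trabecular classes, so the classes are not independent of each other. Members under the minimum were Atp6v0a2, Ctsc, Ctsf and Ctso in callus neutrophils, Atp6v0a2, Ctsf, Ctso, Clcn7 and Ostm1 in macrophages, Ctsf and Ctso in monocytes, and Atp6v0a1 and Ctso in osteoclasts.

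In control callus the members were highest in macrophages and osteoclasts, but the roles that made up the sum differed. The 33 members together came to 19124 CPM (18772 to 19481) in 75 macrophages and 17699 CPM (17522 to 17878) in 108 osteoclasts, which is 1.91% and 1.77% of those classes' UMIs. Monocytes followed at 9432 CPM and neutrophils at 8342 CPM. Plasmacytoid dendritic cells held 6632 CPM and conventional dendritic cells 5196 CPM, while the remaining 10 classes ran from 1883 CPM in T cells to 4618 CPM in stromal and skeletal progenitor cells. The profile of the empty droplets of control callus, which stands for free RNA, held 4265 CPM of the members, above the level of several of those classes and below that of the 4 leading myeloid classes. Of the 33 members, 16 were highest in osteoclasts and 10 in macrophages. The osteoclast class carried all 8 of its markers at 6187 CPM and the macrophage class all 10 of its markers at 5377 CPM.

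**Figure D1:**
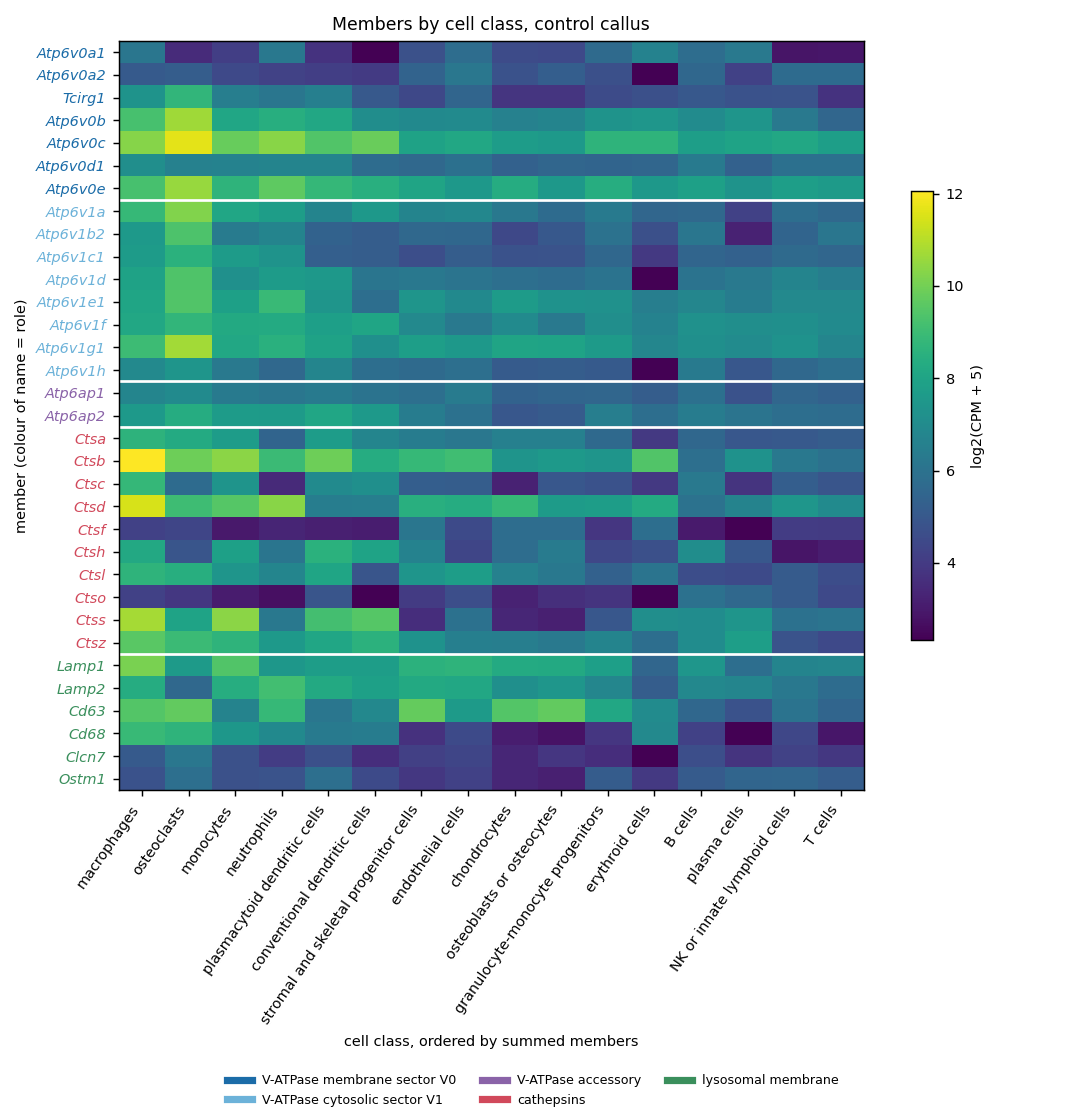
Level of each of the 33 members (vertical, grouped by role) in each cell class of control callus (horizontal), with color for log2(CPM + 5). Most V-ATPase subunits are brightest in osteoclasts, and most cathepsins in macrophages.

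V-ATPase genes were higher in osteoclasts than in macrophages. All 17 V-ATPase genes together reached 13137 CPM in osteoclasts against 5372 CPM in macrophages, a ratio of 2.45 (2.36 to 2.54), and made up 74.2% of the members' UMIs in osteoclasts and 28.1% in macrophages. Every V1 subunit was highest in osteoclasts, and so were both accessory proteins. Atp6v1a, the catalytic A subunit, was at 1180 CPM in osteoclasts, 459 in macrophages and 266 in monocytes, and Atp6v1b2, which pairs with it in the head, was at 641, 182 and 77.2 CPM. The proton-carrying ring of V0 was also highest in osteoclasts. Atp6v0c, its main ring subunit, was at 3239 CPM in osteoclasts, 1272 in neutrophils and 1262 in macrophages, and Atp6v0b at 1634, 336 and 598 CPM. Atp6v1g1, a stalk subunit, reached 1652 CPM in osteoclasts and no more than 505 CPM in any other class. The remaining members of this kind were Atp6v0e (1512 CPM in osteoclasts), the stalk and rotor subunits Atp6v1e1 (679), Atp6v1d (654), Atp6v1f (417) and Atp6v1c1 (373), the regulatory Atp6v1h (165) and the accessory Atp6ap2 (320) and Atp6ap1 (122). For both accessory genes the interval overlapped that of the next class.

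The 3 isoforms of the V0 a subunit among the members were each highest in a different class. Tcirg1 (a3), on chr19:3896050-3907133, was at 419 CPM (392 to 447) in osteoclasts and 157 (126 to 192) in macrophages, and its intervals did not overlap. Atp6v0a1 (a1) went the other way, at 6.50 CPM (3.56 to 10.9) in osteoclasts and 66.5 (47.3 to 90.9) in macrophages. It was highest in erythroid cells at 94.6 CPM, whose interval overlapped that of the next class. Atp6v0a2 (a2) was highest in endothelial cells at 66.8 CPM, also with overlapping intervals. The d1 subunit Atp6v0d1 was the other V0 gene without an osteoclast maximum, at 91.0 CPM in osteoclasts and 135 in macrophages, while its isoform Atp6v0d2, which is outside the members and typical of osteoclasts, was at 687 CPM in osteoclasts and 18.8 in macrophages. Clcn7 was highest in osteoclasts, at 68.3 CPM against 29.0 in macrophages. Ostm1 was at 54.3 CPM in osteoclasts and 53.9 in plasmacytoid dendritic cells, which do not differ beyond their intervals.

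Cathepsins were the larger share in macrophages. The 10 cathepsins summed to 11108 CPM in macrophages and 2964 CPM in osteoclasts, a ratio of osteoclasts to macrophages of 0.267, and 7 of the 10 had their maximum in macrophages. Ctsb, a cysteine protease on chr14:63122462-63145923, was at 4277 CPM (4111 to 4448) in macrophages, 1305 in monocytes and 955 in osteoclasts. Ctsd, the main aspartic protease of the lysosome, had 2825 CPM in macrophages and 523 in osteoclasts, with neutrophils between them at 1270. Ctss, which trims the invariant chain of MHC class II, was at 1701 CPM in macrophages, 1327 in monocytes and 246 in osteoclasts. Ctsc, which activates granule proteases, reached 442 CPM in macrophages and 161 in monocytes. Ctsz (760 CPM), Ctsl (402 CPM) and the carboxypeptidase Ctsa (385 CPM) also had their maximum in macrophages, with osteoclasts next at 497, 343 and 303 CPM. For Ctsl those intervals overlapped. Ctsh was highest in plasmacytoid dendritic cells (373 CPM), Ctsf in stromal and skeletal progenitor cells (66.6 CPM) and Ctso in B cells (57.9 CPM). For each of these genes the interval overlapped that of the next class, macrophages (288 CPM), erythroid cells (52.5 CPM) and plasma cells (44.3 CPM) in that order. Ctsk, the collagen-cleaving cathepsin of osteoclasts and no member here, was at 6830 CPM in osteoclasts and 101 in macrophages.

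Among the membrane genes, Lamp1, the major lysosomal glycoprotein, followed the cathepsins, with 1108 CPM in macrophages, 680 in monocytes and 193 in osteoclasts. Lamp2, its relative that also serves chaperone-mediated autophagy, was highest in neutrophils at 550 CPM and was at 44.1 CPM in osteoclasts. Cd68 was at 464 CPM in macrophages and 395 in osteoclasts, with overlapping intervals. Cd63, a tetraspanin of late endosomes and granules, was nearly level between stromal and skeletal progenitor cells (854 CPM), osteoblasts or osteocytes (844 CPM) and osteoclasts (843 CPM). Of the 31 members with at least 50 UMIs over both classes, 13 were at least 1.5-fold higher and 9 at least 1.5-fold lower in osteoclasts than in macrophages, against 23.6% of 5932 genes higher and 16.6% lower. In GC callus these counts were 12 and 10, against 25.7% of 5702 genes higher and 17.6% lower, and the V-ATPase ratio was 2.13.

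**Figure D2:**
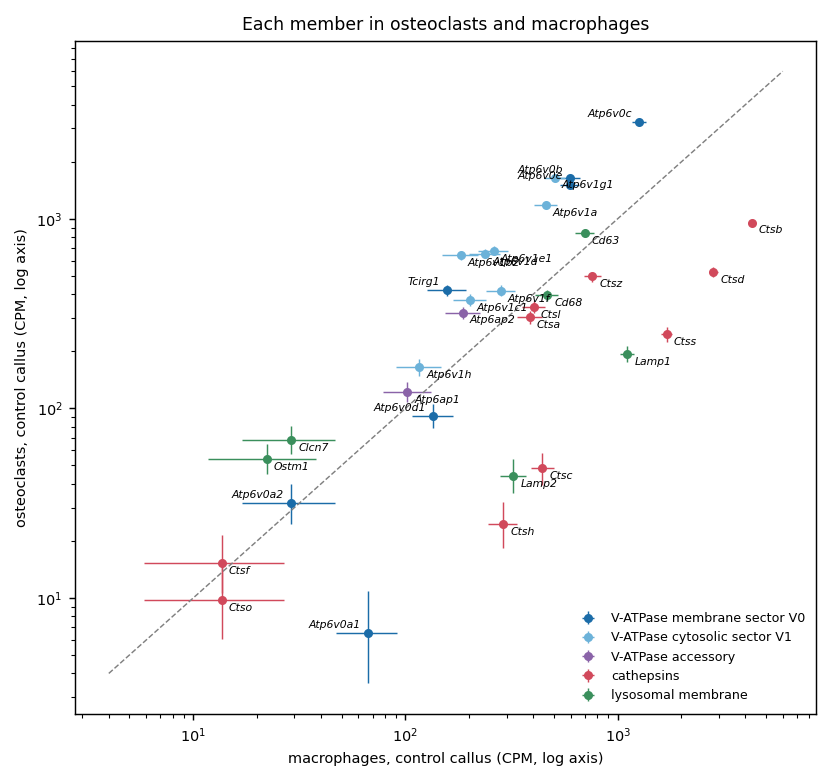
Each member's level in macrophages (horizontal) and osteoclasts (vertical) of control callus, in CPM on log axes, colored by role. V-ATPase subunits lie above the line of equal levels except Atp6v0a1 and Atp6v0d1, and all cathepsins except Ctsf lie below it.

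**Figure D3:**
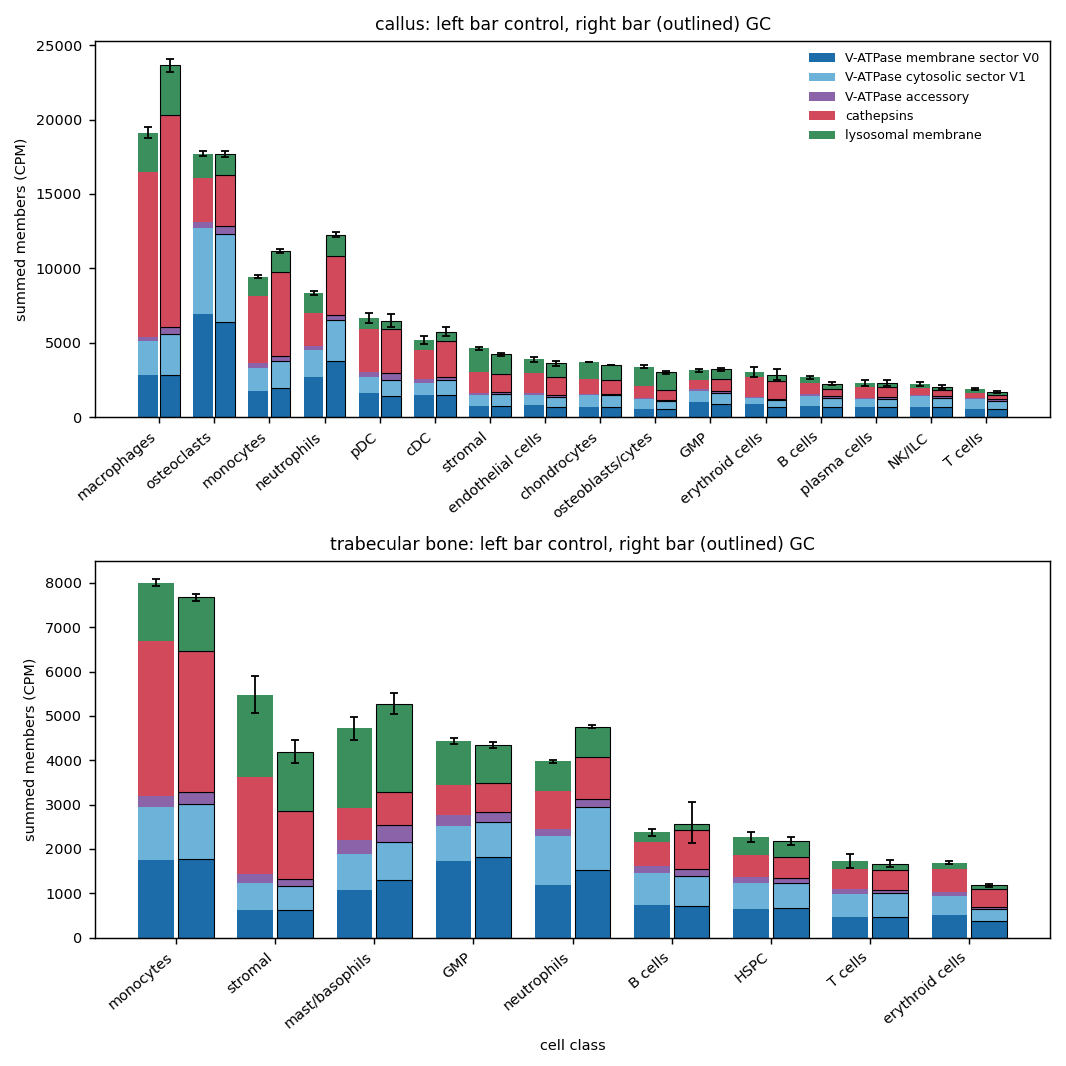
Summed CPM of the members by cell class and library in callus and trabecular bone, stacked by role. Macrophages and osteoclasts reach similar totals in control callus, 19124 and 17699 CPM, from different roles.

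Under GC the summed members were higher in callus macrophages, in every role's sum but that of V0. The sum went from 19124 to 23645 CPM in 75 control and 78 GC cells, a ratio of 1.24 (1.20 to 1.27). Cathepsins were at 11108 and 14240 CPM, V1 at 2242 and 2771, the accessory genes at 288 and 442, the membrane genes at 2644 and 3361, and V0 at 2842 and 2830. Of 28 members over the minimum, 6 were called higher and 0 lower, where the background was 12.4% of 3220 genes higher and 9.10% lower. The median log2 ratio was 0.29 for the members and 0.07 for all genes. Medians of single members gave another order of the roles than the sums, with 0.23 for V0, where 4 of 6 members were above 0, and 0.02 for the cathepsins, where 5 of 8 were.

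The higher cathepsin sum in macrophages came from Ctsb, Ctsl and Ctss. Ctsl was at 402 CPM in control and 1116 CPM in GC callus, 2.77-fold (2.37 to 3.25), and Ctsb was at 4277 and 6463 CPM, 1.51-fold (1.43 to 1.59). Ctss was at 1701 and 2467 CPM (1.45-fold), short of the call. Ctsd (2825 and 2410 CPM) and Ctsz (760 and 640 CPM) had ratios under 1, so the cathepsins did not move as a block. The other calls were V-ATPase genes. Atp6v1h, the regulatory H subunit, was at 116 and 250 CPM (2.16-fold), Atp6v1b2 at 182 and 302 CPM (1.66-fold), the accessory Atp6ap2 at 186 and 300 CPM (1.62-fold) and Atp6v0d1 at 135 and 207 CPM (1.53-fold). Lamp1 was at 1108 and 1508 CPM (1.36-fold) and Cd68 at 464 and 585 CPM (1.26-fold), neither past the fold.

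The macrophage class was made of 2 clusters whose weights differed: cluster 16 held 58.7% of the control and cluster 57 57.7% of the GC macrophages. Within them the sum was 1.09-fold and 1.19-fold higher in GC, and Ctsl 2.08-fold and 2.66-fold. The V-ATPase sum was not higher in both, at 0.943-fold (0.872 to 1.02) in cluster 16 and 1.26-fold (1.18 to 1.36) in cluster 57. The cathepsin and membrane sums had ratios above 1 in both clusters. Ctsb was 1.39-fold and 1.36-fold, below the call in both. In cluster 57 Ctsd was lower in GC, at 5154 and 3402 CPM (0.660-fold). Chondrocyte markers in macrophages, all 10 of them detected, were at 2683 CPM in control and 803 CPM in GC callus, and their part in the result was not tested.

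Monocytes of the callus also had a higher sum under GC, and Ctsb had the largest difference in CPM. The members summed to 9432 CPM in 634 control cells and 11130 CPM in 638 GC cells, 1.18-fold (1.16 to 1.20). Of 31 members, 4 were called higher and 0 lower, against 9.90% of 6688 genes higher and 8.12% lower. Ctsb was at 1305 CPM (1262 to 1348) in control and 2399 CPM (2337 to 2462) in GC callus, 1.84-fold. Tcirg1 (84.4 and 130 CPM), Atp6v0d1 (94.6 and 158 CPM) and Atp6v1b2 (77.2 and 145 CPM) were the other 3, at 1.54-fold, 1.67-fold and 1.87-fold. Ctss, at 1327 and 1313 CPM, and Lamp1, at 680 and 701 CPM, were level between the libraries. The median log2 ratio of the members was 0.11 and that of all genes 0.05. Ctsb was 1.88-fold, 2.18-fold and 1.20-fold higher in the 3 monocyte clusters with enough cells, the first of which held 78.4% of the control and 75.5% of the GC cells. Among barcodes over the UMI cutoff alone (41 control and 18 GC monocytes) the log2 ratio of the sum was -0.18 and not 0.24, and Tcirg1 also turned, to -0.20. Chondrocyte markers were at 2935 and 948 CPM, dissociation stress genes at 4823 and 2864 CPM and immature neutrophil markers at 584 and 1241 CPM in these cells, and their part was not tested.

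Callus neutrophils had a higher sum under GC, and their clusters differed in weight between the libraries. The members were at 8342 CPM in 1683 control cells and 12250 CPM in 1374 GC cells, 1.47-fold (1.44 to 1.5). Of 29 members over the minimum, 12 were called higher and 1 lower, against 12.7% of 5233 genes higher and 12.3% lower. The median log2 ratio of the members was 0.49 and that of all genes 0.01. Cathepsins were 1.77-fold higher (2238 and 3957 CPM), V1 1.51-fold (1847 and 2793 CPM), V0 1.40-fold (2665 and 3744 CPM) and the membrane genes 1.07-fold (1332 and 1422 CPM).

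The neutrophil calls covered every role but the accessory genes. In V0 they were Tcirg1 (66.6 and 182 CPM, 2.74-fold), Atp6v0a1 (69.9 and 147 CPM, 2.10-fold) and Atp6v0d1 (99.3 and 192 CPM, 1.93-fold). In V1 they were Atp6v1b2 (101 and 231 CPM, 2.28-fold), the C subunit Atp6v1c1 (155 and 314 CPM, 2.03-fold) and the E subunit Atp6v1e1 (480 and 896 CPM, 1.87-fold). The ring subunits Atp6v0c (1272 and 1785 CPM) and Atp6v0b (336 and 449 CPM) were 1.40-fold and 1.34-fold higher and not called. Among the cathepsins, Ctsb was at 491 and 1171 CPM (2.38-fold) and Ctsd at 1270 and 2297 CPM (1.81-fold), while Ctss was lower at 69.1 and 28.4 CPM (0.412-fold). Of the membrane genes, Ostm1 (23.0 and 55.2 CPM), Clcn7 (11.7 and 21.2 CPM), Cd68 (118 and 202 CPM) and Lamp1 (173 and 274 CPM) were called higher. Lamp2, at 550 and 374 CPM (0.679-fold), went the other way and was just short of the call.

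Most control neutrophils (65.1%) lay in cluster 3, whereas most GC neutrophils (83.8%) lay in cluster 1. Within cluster 1 and within cluster 3 the sum was 1.11-fold higher in GC, and within cluster 10, the immature neutrophils (135 and 166 cells), it was 1.56-fold. Cluster 3 held 57 GC cells. In clusters 1, 3 and 10 the V-ATPase sum was 1.08-fold, 1.05-fold and 1.45-fold, the cathepsin sum 1.23-fold, 1.39-fold and 2.01-fold, and the membrane sum 0.974-fold, 0.916-fold and 1.05-fold. Without removal of doublets, when 1140 control and 332 GC cells were named neutrophils, the log2 ratio of the sum was 0.12 and not 0.55, and the signs of the V-ATPase sum, Atp6v1c1 and Cd68 turned. The membrane sum, Atp6v1c1 and Cd68 also turned with at most 5% mitochondrial UMIs, when 1173 control and 239 GC cells were named neutrophils. Unnamed GC cells of the callus numbered 1944 without removal of doublets and 1996 at 5% mitochondrial UMIs, beside 996 in the main setting. Both settings thus changed which cells carried the class name. The members called higher were 5 of 28 in cluster 1, 4 of 27 in cluster 3 and 9 of 22 in cluster 10, against 13.9%, 15.8% and 19.1% of all genes. Those called lower were 1 in cluster 1 (Ctss), 3 in cluster 3 (Atp6v0b, Ctsh and Ctss) and 0 in cluster 10. No background was taken for lower calls within clusters. Ctsb was called higher in all 3 clusters, at 1.57-fold, 1.51-fold and 3.74-fold, and so was Atp6v1b2, at 1.88-fold, 2.67-fold and 2.13-fold. Tcirg1 and Ostm1 were called in cluster 1 alone, Atp6v1c1 and Atp6v1e1 in cluster 10 alone, and Clcn7, Cd68 and Lamp1 in none, where Clcn7 was under the minimum throughout. Ctsd was 1.14-fold, 1.62-fold and 2.12-fold. In callus neutrophils chondrocyte markers were at 4279 CPM in control and 1943 CPM in GC, stress genes at 8182 and 3918 CPM, hemoglobin genes at 268 and 962 CPM and immature neutrophil markers at 5912 and 9258 CPM. The 10 macrophage markers, of which 1 was at 0 in each library, were at 24.7 and 17.8 CPM. The part of these lists in the result was not tested.

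**Figure D4:**
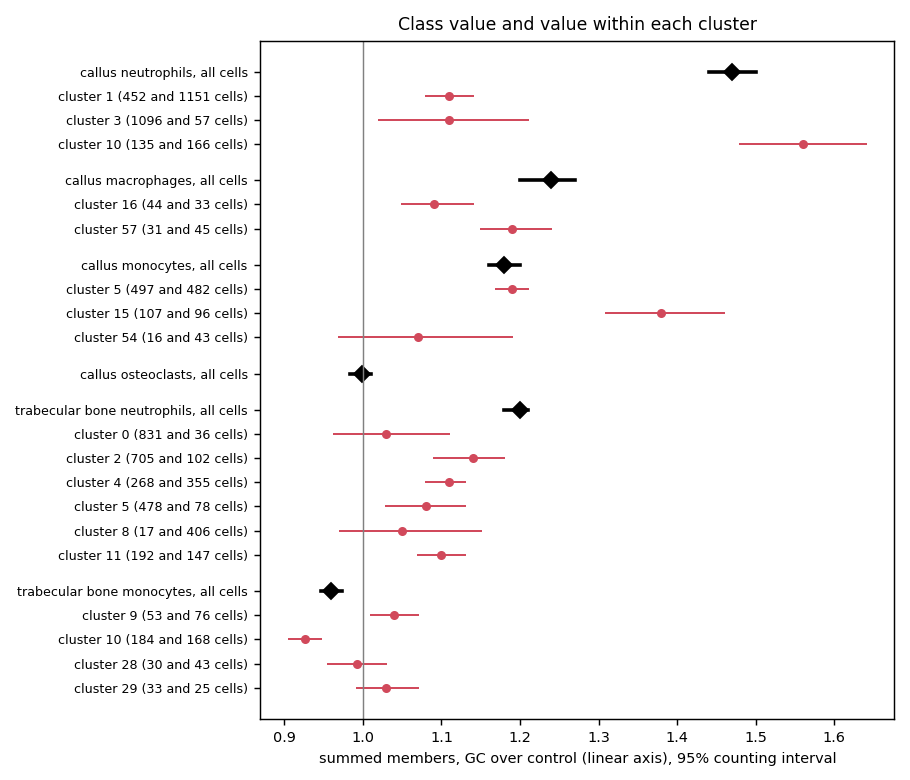
Ratio of the summed members, GC over control, within each cluster that had enough cells in both libraries, with exact 95% counting intervals on a linear axis. Callus neutrophil clusters lie at 1.11, 1.11 and 1.56, beside the class ratio of 1.47.

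Osteoclasts, the class with the most V-ATPase, had the same sum in both libraries. The members were at 17699 CPM in 108 control cells and 17676 CPM in 119 GC cells, a ratio of 0.999 (0.984 to 1.01). Of 31 members, 2 were called higher and 1 lower, against 5.32% of 6957 genes higher and 5.25% lower. Roles differed within that level sum. V0 was at 6934 and 6404 CPM (0.924-fold), V1 at 5762 and 5925 (1.03-fold), cathepsins at 2964 and 3419 (1.15-fold) and the membrane genes at 1597 and 1404 (0.879-fold). The calls were Clcn7 (68.3 and 124 CPM, 1.81-fold, 1.47 to 2.24), Atp6v0d1 (91.0 and 148 CPM, 1.62-fold) and, lower, Cd63 (843 and 549 CPM, 0.652-fold). Its partner Ostm1 did not follow Clcn7, at 54.3 and 60.4 CPM, and Tcirg1 was at 419 and 400 CPM. Ctsb (955 and 1383 CPM) and Ctsl (343 and 496 CPM) were each 1.45-fold higher, short of the call. The osteoclast markers were at 6187 and 6838 CPM, and the chondrocyte markers at 2404 and 622 CPM.

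Ctsb, Atp6v0d1 and Atp6v1b2 were called in callus neutrophils, macrophages and monocytes alike, 3 readings of the same pair of libraries. They are 3 of 27 members over the minimum in all 3 classes, against 2.63% of 2818 genes. Within clusters, Ctsb and Atp6v0d1 were called in neither macrophage cluster, Atp6v1b2 in cluster 57 alone, and Atp6v0d1 not in neutrophil cluster 1. Of the monocyte clusters, all 3 were called in cluster 5, Ctsb and Atp6v1b2 in cluster 15, and none of them in cluster 54. In osteoclasts their ratios were 1.45, 1.62 and 1.34, and in chondrocytes 1.24, 1.36 and 1.69. In the empty droplets of control callus Ctsb stood at 289 CPM, Atp6v0d1 at 61.1 CPM and Atp6v1b2 at 40.1 CPM. Tcirg1 stood there at 99.1 CPM, above its control levels in callus neutrophils and monocytes, where it was called higher. Lamp1, at 238 CPM, stood above its control level in callus neutrophils. Ctss (56.9 CPM) and Clcn7 (8.43 CPM) stood below but near theirs in those neutrophils, where Ctss was called lower and Clcn7 higher. The part of free RNA in these calls was not tested. The GC callus matrix gives no such profile. In conventional dendritic cells (56 and 55 cells) the members summed to 5196 and 5749 CPM, with Ctsb at 318 and 568 CPM. Most control cells of that class (69.6%) lay in cluster 55 and most GC cells (83.6%) in cluster 14, within which the sum was 1.02-fold (0.923 to 1.14).

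**Figure D5:**
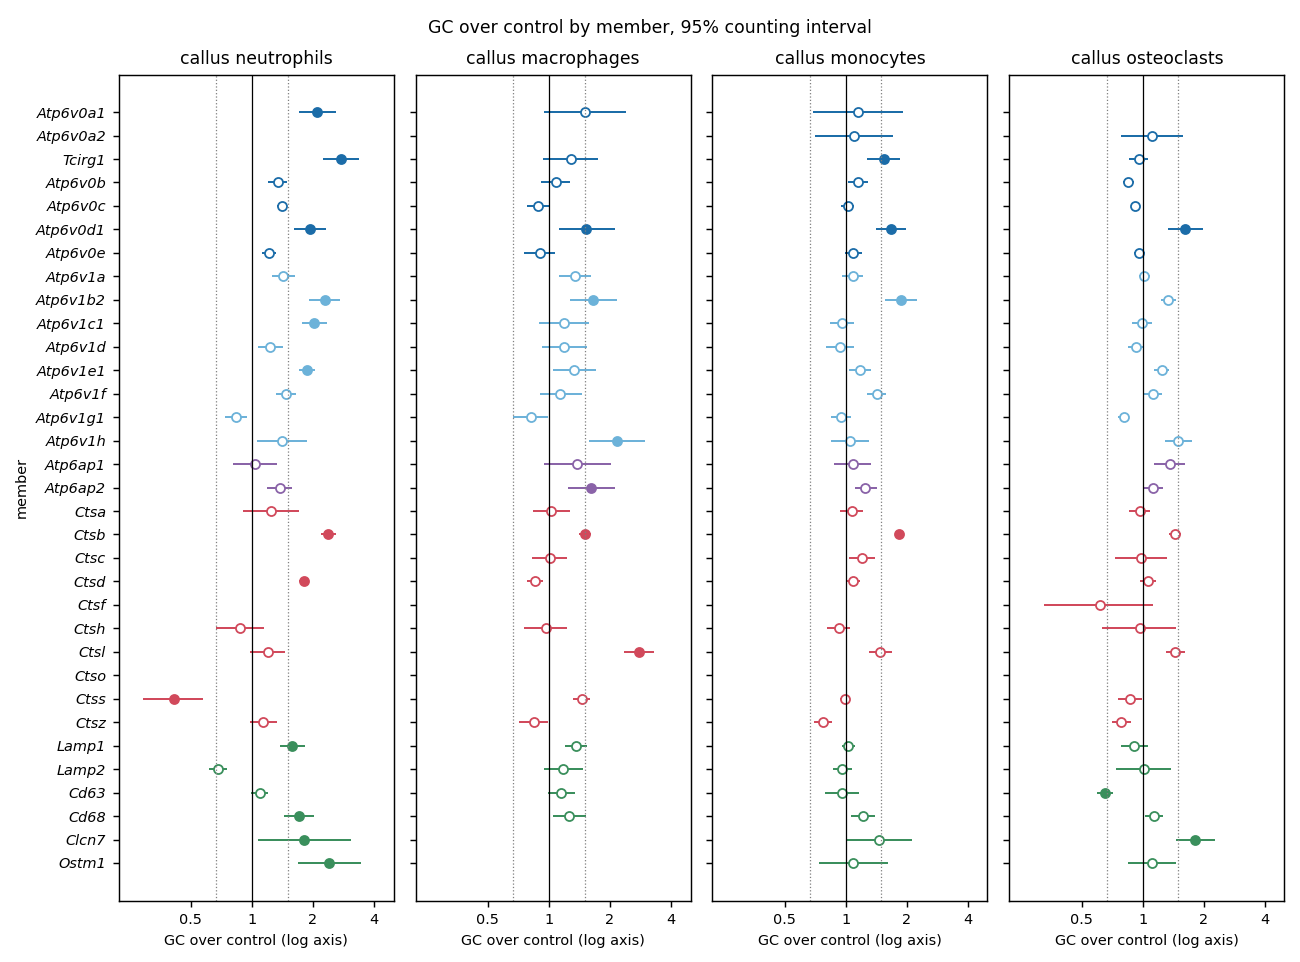
Ratio of GC to control for each member in callus neutrophils, macrophages, monocytes and osteoclasts, with exact 95% counting intervals on a log axis and filled points for calls at 1.5-fold. Neutrophils have 12 calls above 1 and 1 below, macrophages 6 and 0, monocytes 4 and 0, osteoclasts 2 and 1.

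In the named skeletal classes the summed members were slightly lower under GC. Unnamed clusters, most of which scored highest for chondrocytes or hypertrophic chondrocytes, are not part of these classes and had a higher sum (1.08-fold). Chondrocytes, with 2307 control and 2147 GC cells spread over 23 clusters, had 3694 and 3509 CPM, 0.95-fold (0.943 to 0.957). Of 33 members, 3 were called higher and 0 lower, against 1.69% of 13499 genes higher and 2.11% lower. They were Atp6ap2 (26.0 and 44.2 CPM, 1.70-fold), Atp6v1b2 (16.4 and 27.7 CPM, 1.69-fold) and Atp6v1e1 (200 and 305 CPM, 1.53-fold), all V-ATPase genes. Single members did not follow the sum, since 20 were above 0 and 13 below, with a median log2 ratio of 0.07 beside 0.02 for all genes. Without the 3 highest members, Cd63, Ctsd and Lamp1, the log2 ratio of the sum was 0.03 and not -0.07. Cd63 was at 695 and 514 CPM (0.738-fold) and Ctsz at 83.8 and 56.0 CPM (0.667-fold), not called. Within 16 chondrocyte clusters the sum was higher in 7, lower in 8 and ranged from 0.795-fold to 1.17-fold. The libraries filled different clusters, such as cluster 30 with 304 control and 15 GC cells and cluster 2 with 16 and 338. Chondrocyte markers were at 90146 and 65862 CPM and osteoblast or osteocyte markers at 13378 and 20769 CPM in the class, and their part was not tested. Stromal and skeletal progenitor cells had 4618 and 4211 CPM (0.912-fold), with 1 member called higher and 2 lower of 29, against 5.05% of genes higher and 6.53% lower. These were Atp6v1e1 (166 and 325 CPM), and Ctsc and Ctsz, lower. Osteoblasts or osteocytes had 3386 and 3003 CPM (0.887-fold), with 0 called higher and 1 lower, Ctsa (88.6 and 54.1 CPM), of 27, against 5.38% and 6.55%.

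B cells and T cells of the callus had low levels and lower ones in GC, together with the rest of their genes. B cells were at 2663 and 2254 CPM (0.846-fold), with 0 of 28 members called higher and 8 lower, against 4.05% of 4860 genes higher and 18.4% lower. The median log2 ratio was -0.17 for the members and -0.17 for all genes, so the members stood with the remaining genes of that class. The 8 included Cd63 (42.1 and 16.4 CPM), Ctso (57.9 and 23.8 CPM) and Ctsz (129 and 53.6 CPM). T cells were at 1883 and 1694 CPM.

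Trabecular bone gave no macrophage or osteoclast class, and monocytes were its members' main site. Of the 33 members, 18 were highest in monocytes of control trabecular bone, 5 in stromal and skeletal progenitor cells (17 cells) and 4 in mast cells or basophils. For Atp6v0b, Atp6v1c1, Atp6v1d, Atp6v1h, Atp6ap1 and Ostm1 the monocyte interval overlapped that of the next class. The same held for Ctso and Clcn7 in stromal and skeletal progenitor cells and for Atp6v1f and Atp6ap2 in mast cells or basophils. The sum was 8003 CPM in 300 control and 7676 CPM in 312 GC monocytes, 0.959-fold (0.946 to 0.973). Of 32 members, 0 were called higher and 1 lower, against 1.29% of 8753 genes higher and 2.01% lower. The 1 was Cd63, at 27.5 and 12.1 CPM (0.440-fold). Ctsb was at 652 and 521 CPM (0.799-fold), Ctss at 638 and 516 CPM (0.808-fold), Ctsc at 631 and 648 CPM and Lamp1 at 772 and 746 CPM. Within 4 monocyte clusters the sum ratio lay between 0.926 and 1.04. Hemoglobin genes were at 1097 and 3858 CPM and immature neutrophil markers at 4493 and 7941 CPM in these monocytes, and their part was not tested. The ratio of Ctsb was thus above 1 in callus monocytes and below 1 in those of trabecular bone, a difference that could not be tested. Granulocyte-monocyte progenitors were at 4431 and 4343 CPM (0.98-fold). Erythroid cells were at 1692 and 1178 CPM (0.696-fold), where the median log2 ratio of all genes was itself -0.63. Within 4 erythroid clusters the ratio ran from 0.918 to 1.30 and was above 1 in 3, and cluster 7, the lowest in level at 412 and 436 CPM, held 99 control and 349 GC cells. Mast cells or basophils were at 4717 and 5273 CPM.

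Neutrophils of trabecular bone had a modestly higher sum under GC, most of it in V-ATPase genes. The sum was 3978 CPM in 2502 control and 4759 CPM in 3130 GC cells, 1.20-fold (1.18 to 1.21), with V-ATPase genes at 2445 and 3132 CPM (1.28-fold) and cathepsins at 866 and 934 CPM (1.08-fold). Of 32 members, 1 was called higher and 0 lower, against 3.40% of 9029 genes higher and 1.38% lower. It was Atp6v1g1, at 354 CPM (345 to 363) and 592 CPM (581 to 603), 1.67-fold. Within the 6 clusters with at least 15 cells in each library it was 1.18-fold to 1.48-fold and called in none. Atp6v0e, a small V0 subunit, was at 251 and 376 CPM and just short of the call. Ctsb was at 83.2 and 90.8 CPM and Ctsd at 437 and 501 CPM. The median log2 ratio was 0.18 for the members and 0.10 for all genes. Within each of the same 6 clusters the sum was higher in GC, by 1.03-fold to 1.14-fold. The remaining clusters 1, 3 and 6 held 833, 642 and 531 GC cells and 8, 1 and 2 control cells. Most GC neutrophils thus lay outside the within-cluster values. The largest cluster differed, cluster 0 with 33.2% of control and cluster 1 with 26.6% of GC cells. Hemoglobin genes were at 1783 and 3154 CPM, and their part was not tested.

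Across the neutrophil series of trabecular bone the cathepsins were highest in mature cells in both libraries. As class sums, V-ATPase genes were highest in progenitors in control and in mature cells in GC. In control, cathepsins were at 677 CPM in granulocyte-monocyte progenitors, 564 in immature and 1262 in mature neutrophils. Ctsd accounted for most of this, at 120, 213 and 730 CPM. V-ATPase genes were at 2759, 2357 and 2560 CPM, and Lamp1 at 248, 137 and 64.4 CPM. In GC, cathepsins were at 648, 626 and 1268 CPM and V-ATPase genes at 2830, 2675 and 3628 CPM. Within clusters the order of the V-ATPase genes varied. Progenitor clusters 12 and 27 were at 3058 and 2142 CPM in control and 3223 and 2081 CPM in GC. Mature clusters 0 and 2 were at 2927 and 2278 CPM in control and 3316 and 2682 CPM in GC. Most mature GC cells lay in clusters 1, 3 and 6, which held 8, 1 and 2 control cells. The part of cluster weights in the order was not tested.

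Neutrophils of callus had a higher sum than those of trabecular bone, in classes that differed in maturity. In control libraries the sum was 8342 CPM in callus and 3978 CPM in trabecular bone, 2.10-fold (2.06 to 2.13), with 21 of 31 members at least 1.5-fold higher in callus and 2 lower, against 36.2% of 8158 genes higher and 19.3% lower. Cathepsins were 2.58-fold and V0 2.26-fold higher in callus. Ctsb was at 491 CPM in callus and 83.2 in trabecular bone, and Ctsd at 1270 and 437 CPM. Immature neutrophil markers were at 5912 CPM in callus and 72917 CPM in trabecular bone. Depth also differed, with a median of 1301 UMIs per control neutrophil in callus and 5980 in trabecular bone. Chondrocyte markers were at 4279 and 0.393 CPM in these cells. The part of these differences was not tested. Among mature neutrophils alone (1548 and 1547 cells), a comparison added after seeing the data, the sum was 8652 and 4491 CPM, 1.93-fold (1.89 to 1.96), with cathepsins 1.80-fold, V0 2.48-fold, Ctsd 1.66-fold and Ctsb 6.10-fold. There 19 of 30 members were higher in callus and 2 lower, against 46.8% of 6235 genes higher and 16.4% lower.

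Under GC the neutrophil sum was 2.57-fold higher in callus, with 22 of 32 members higher and 3 lower, against 31.9% of 8298 genes higher and 24.9% lower. Among mature cells alone 21 of 31 were higher and 4 lower, against 34.5% and 26.2%. Monocytes were at 9432 CPM in callus and 8003 CPM in trabecular bone in the control libraries (1.18-fold), with 7 of 32 members higher in callus and 6 lower, against 20.0% of 8335 genes higher and 39.3% lower. Under GC these counts were 13 and 4, against 25.1% and 39.2%. Tissue and library cannot be told apart here.

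A list of 85 other lysosomal genes (isoforms and assembly factors of the pump, remaining cathepsins and inhibitors, hydrolases, membrane and sorting proteins, and regulators) was read in the same way, against the same backgrounds. Counts within clusters are not given for this list. In callus neutrophils 13 of 49 were called higher and 3 lower, against 12.7% and 12.3% of all genes. Cln3, a lysosomal membrane protein lost in a form of Batten disease, was at 128 and 443 CPM and the cholesterol exporter Npc1 at 107 and 345 CPM, whereas Serpinb6a, Ctsk and Neu1 were lowest in GC over control (Neu1 75.0 and 41.3 CPM). In callus monocytes 11 of 59 were higher and 2 lower, against 9.90% and 8.12% of all genes. Tfec (17.4 and 45.0 CPM), Npc1 (191 and 402 CPM) and Cln3 (23.9 and 50 CPM) were highest. Npc2 (1143 and 796 CPM), Lamtor4 (77.9 and 42.5 CPM) and the regulator Tfeb (17.8 and 4.17 CPM) had the lowest ratios there.

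In callus macrophages 10 of 44 genes of that list were higher and 0 lower, against 12.4% and 9.10% of all genes. They were led by Ctsk (101 and 476 CPM), Atp6v0d2 (18.8 and 89.2 CPM) and Grn, the precursor of granulins (730 and 1381 CPM). Acp5, Lamtor1 and Man2b1 (159 and 104 CPM) were lowest. Both Ctsk and Atp6v0d2 are typical of osteoclasts, while the 8 osteoclast markers in the macrophages were at 278 CPM in control and 174 CPM in GC callus. In osteoclasts themselves Ctsk was at 6830 and 8294 CPM and Atp6v0d2 at 687 and 869 CPM. There 4 of 68 genes of the list were higher and 0 lower, against 5.32% and 5.25% of all genes. Cln3, Dmxl1 and Arsb had the highest ratios and Rogdi, Cst3 and Lamtor4 the lowest. In chondrocytes 0 of 75 were higher and 1, Hexa (64.2 and 37.1 CPM), was lower, against 1.69% and 2.11% of all genes. Laptm4a and Gusb came next to Hexa, while Dmxl1, Tmem199 and M6pr had the highest ratios. In trabecular monocytes 0 of 72 were called, against 1.29% of all genes higher and 2.01% lower. Dmxl2, Ctsg and Acp5 were highest there and Lipa, Lyz2 and Tfeb lowest. In trabecular neutrophils 3 of 71 were higher, against 3.40% of all genes. Among them were Scarb2 (16.8 and 31.6 CPM) and Rraga (14.4 and 25 CPM), while Gm2a, Ctse and Gla had the lowest ratios. Ctsg, the serine protease of early granules, was at 2935 and 2980 CPM in trabecular granulocyte-monocyte progenitors and at 9.21 and 11.4 CPM in trabecular neutrophils. Ctsw was at 15.1 and 10.1 CPM in chondrocytes and under the minimum in the callus myeloid classes.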

How the data were processed

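The authors made the count matrices with Cell Ranger (5.0.1 in the submitters' processing notes, which also name Seurat 3.2.0, on mm10), and the deposited values are raw UMI counts per gene and barcode. Cell labels came from new clusters, not from the authors. In full matrices, barcodes over a UMI cutoff, and those of at least 500 UMIs whose profile differed from that of empty droplets (adjusted p of 0.01), were taken as cells. For GC callus every listed barcode was taken, so cells of control and GC callus were chosen by different rules. In the setting of barcodes over the cutoff alone, GC callus was given the cutoff of control callus, 7535 UMIs. Cells with under 200 genes or over 10% mitochondrial UMIs were removed, and the highest doublet scores at 0.8% per 1000 cells. Libraries of a tissue were clustered together on 2000 variable genes and 30 components at Leiden resolution 1, without the members, other lysosomal genes and stress genes. Acp5, on the list of other lysosomal genes, was not left out because it is also an osteoclast marker. Classes needed 15 cells in each library. Counts were summed per class and library, and ratios were given exact intervals. The ratio calculation was tested on simulated data.

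All 33 members are accounted for. Values are given for every member called under GC in callus neutrophils, macrophages, monocytes, osteoclasts and chondrocytes and in trabecular monocytes and neutrophils. Calls of other classes are given in part or not at all. Trabecular B cells had 5 members higher and 7 lower of 25, against 12.3% and 50.6% of genes. That class held 317 control and only 16 GC cells. All 16 lay in cluster 19, with 60 of the control cells, and the sum there was 0.922-fold (0.755 to 1.12). Trabecular erythroid cells had 0 higher and 8 lower of 25, against 0.532% and 56.3%. The highest members of a class are given in part. Of the 85 other lysosomal genes, up to 3 highest and 3 lowest ratios of a class are named, not all with values. Values are also given for Atp6v0d2, Ctsk, Ctsg and Ctsw. The members and lists were chosen with earlier results of these data known. Alternatives changed the cell calling, filters, clustering, scaling, aggregation and depth. Python 3.11.15, numpy 2.4.6, scipy 1.17.1, scikit-learn 1.9.0 and leidenalg 0.10.2 were used. The values of 1 gene of the list of other lysosomal genes are not reported here.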

Additional observations from a re-analysis of the deposited data

Results flagged for a closer look

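The summed members in monocytes were 1.18-fold higher in GC than in control callus and 0.959-fold in trabecular bone, so the 2 tissues went opposite ways. This difference was not tested, since each group is 1 library, and the sign turned under 1 alternative setting in callus and under 3 in trabecular bone.

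Callus clusters that could not be named, which no comparison above uses, held 292 control and 996 GC cells. The members summed to 3712 CPM in the former and 4009 CPM in the latter, beside 3694 and 3509 CPM in chondrocytes.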

How the results depend on the processing

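No paired analysis was possible because each group is 1 library. Values here are log2 ratios of the summed members, GC over control unless named otherwise, with the reported value first. In callus macrophages 0.31 became 0.39 with barcodes over the UMI cutoff alone, 0.24 when centred on all genes, 0.17 as a mean over cells, 0.14 after thinning to 1000 UMIs, 0.25 without the 3 highest members, and 0.13 and 0.26 within clusters 16 and 57. In callus monocytes 0.24 became -0.18 over the cutoff, 0.21 with at least 500 genes per cell and at Leiden resolution 2, 0.19 centred, 0.28 thinned, 0.14 without the 3 highest, and 0.47 and 0.10 within clusters 15 and 54. In callus neutrophils 0.55 became 0.37 with at most 5% mitochondrial UMIs, 0.12 without removal of doublets, 0.53 without the 3 highest, and 0.15, 0.15 and 0.64 within clusters 1, 3 and 10. At 5% mitochondrial UMIs and without removal of doublets, 239 and 332 GC cells were named neutrophils, beside 1374 in the main setting. Barcodes over the cutoff gave no neutrophil class. In osteoclasts 0.00 became -0.18 at 5% mitochondrial UMIs, -0.03 centred, -0.09 over cells, -0.08 thinned and 0.10 without the 3 highest. In chondrocytes -0.07 became -0.09 over the cutoff and centred, -0.05 at resolution 2, 0.00 over cells, -0.02 thinned and 0.03 without the 3 highest. In trabecular monocytes -0.06 became -0.04 over the cutoff, 0.01 at resolution 2, -0.09 without the 3 highest, and 0.05, -0.11, -0.01 and 0.04 within clusters 9, 10, 28 and 29. Osteoclasts over macrophages in control callus moved from -0.11 to -0.15 over the cutoff, -0.30 at 5% mitochondrial UMIs, -0.18 at 500 genes, -0.20 without removal of doublets, -0.21 over cells and -0.25 thinned. The 6 members past the fold in macrophages became 3 without removal of doublets, 2 thinned, 2 at 2-fold and 14 at the lower threshold tried. Apart from values within clusters, the reversed role sums and members were as follows. Macrophage V-ATPase turned when thinned (0.00) and chondrocyte cathepsins over cells (0.02). Monocyte V-ATPase (-0.04), cathepsins (-0.26) and Tcirg1 (-0.20) turned over the cutoff. In callus neutrophils V-ATPase (-0.04), the membrane genes (-0.26), Atp6v1c1 (-0.08) and Cd68 (-0.52) turned without removal of doublets. The neutrophil membrane genes (-0.27), Atp6v1c1 (-0.09) and Cd68 (-0.23) turned at 5% mitochondrial UMIs. Within clusters, reversed sums included macrophage V-ATPase (-0.08 in cluster 16) and callus neutrophil membrane genes (-0.04 and -0.13 in clusters 1 and 3). Trabecular neutrophil cathepsins were at -0.23 in cluster 0. Over 266 values for 31 pairs of a called member and class, 261 kept their direction and 223 stayed past the fold. Some of these settings barely changed a class, as resolution 0.5 left the cell counts of callus neutrophils, macrophages and osteoclasts as they were. The count does not cover values within clusters, where some calls were not met, such as Ctsb and Atp6v0d1 in macrophages. The within-cluster settings were chosen after seeing the data. The cause of these shifts was not tested.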
